A study of Mus musculus with 18 samples.

Results

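Tumours and non-tumour tissue of the intestine were compared in mice that had all been fed St. John's wort (SJW) and had all been injected with azoxymethane (AOM). The comparison rests on 6 of the study's 18 arrays, picked by their titles: 3 of SJW/AOM tumours and 3 of SJW/AOM non-tumour areas. The mice were male C57BL/6, an inbred laboratory strain. Their age, the doses, the time between injection and tissue collection, and whether a tumour and a non-tumour area came from the same mouse are not given in the sources used here. The study's design calls the arrays of a group biological replicates. Control tumours and control non-tumour tissue, 3 arrays each, came from AOM-injected mice on the control diet. Their levels were compared only to ask whether the tumour change differed between the diets. Levels of SJW tissue after saline (3 arrays) appear only in 1 plot. Each array set the RNA of 1 sample, labelled with Cy5 (red), against a bought RNA pool of Swiss Webster mice, labelled with Cy3 (green). The pool was made from embryos and from adult brain, thymus, spleen, lung, heart, liver, kidney and gonads, and held no intestine. A level is given here as the log2 ratio of sample over pool, so 0 means as much transcript as in the pool, and a change is the mean of the tumour levels minus the mean of the non-tumour levels, on the log2 scale, ± its standard error with 3 arrays in each group. All 18 arrays, 3 of control tissue after saline included, entered the probe filter and the estimate of spread behind every standard error and p-value. Levels on single arrays are listed for replicates 1, 2 and 3 of a group.

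SJW is a medicinal herb, and its constituent hyperforin is known to activate the nuclear receptor PXR, which switches on drug-metabolising enzymes and efflux pumps in liver and gut. AOM is an alkylating carcinogen that is activated in the body and is used to induce intestinal tumours in rodents. In the intestinal crypt, Wnt ligands keep beta-catenin from being degraded, and beta-catenin then acts with TCF and LEF proteins on genes of stem and progenitor cells. Among those genes are inhibitors of the pathway itself (Axin2, Notum, Nkd1, Znrf3 and Rnf43), so that Wnt signalling limits its own range. Cells that leave the crypt stop dividing and become absorptive cells, which carry ion and water transporters, or secretory cells such as goblet and enteroendocrine cells. Since every mouse in the comparison ate SJW, the comparison describes tumours on that diet and not an effect of the diet.

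Red signal was 5.31 to 6.83 times the local background on the tumour arrays and 2.08 to 2.86 times on the non-tumour arrays, and 75.9 to 87.2% and 72.1 to 75.6% of probes were well above background. The tumour arrays were scanned on a second day and lay on other slides than the non-tumour arrays, so tumour and scan day cannot be told apart. Correlation of log2 ratios over genes was 0.922 to 0.958 between the tumours and 0.918 to 0.954 between the non-tumour samples. Tumour replicate 2 stood apart, with 59 genes more than 4-fold above both other tumours, against 6 for tumour replicate 1 and 12 for tumour replicate 3. Among the non-tumour arrays replicate 3 stood apart, with 71 such genes, against 0 for replicate 1 and 6 for replicate 2, and digestive enzymes of the pancreas were among them. The larger effects of leaving out either array are given beside the genes they touch or with the differences among tumours. The labels call the tissue small intestine, and their extraction protocol names liver. Lactase (Lct), an enzyme of small intestinal absorptive cells, measured 0.23, 0.24 and 0.03 in tumours and 0.05, 0.07 and 0.23 in non-tumour tissue, near the level of the pool. Car1, a carbonic anhydrase abundant in the large intestine, measured 1.91, 4.31 and 3.99 in tumours and 7.1, 6.34 and 6.45 in non-tumour tissue, far above the pool. The albumin transcript (Alb) of hepatocytes measured 1.39, -3.46 and -0.86 in tumours and -3.01, -2.4 and -2.41 in non-tumour tissue, so that tumour replicate 1 alone was above the pool, which itself contains liver. The mean over 12 hepatocyte genes, Alb included, did not set that tumour apart. It was -1.14, -1.28 and -1.15 in tumours and -0.87, -0.90 and -0.61 in non-tumour tissue. The tissue is called intestine below.

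Of 26067 genes tested, 2398 (9.2%) were higher and 4015 (15.4%) were lower in tumours at an adjusted p under 0.05 (limma, Benjamini-Hochberg over all genes), 6413 or 24.6% in all. The change exceeded 2-fold for 551 of the higher and 1513 of the lower genes, and 8-fold for 24 and 52. The 3 tumours and the 3 non-tumour samples did not overlap for 12041 genes (46.2%), 4611 (17.7%) with tumours above and 7430 (28.5%) with tumours below. The median change over all genes was -0.06, and list medians below are to be read against it. List counts are to be read against the 9.2% and 15.4%: a count near these shares is not a result about the list. The lists were chosen with earlier results of these data known. A count far from these shares therefore describes a list and is not a test of it. Falls were near 15.4% in the lists of ERK, p53, NF-kB, insulin-like growth factor, NADPH oxidase, posterior gut, small intestinal, ribosomal protein, interferon, fibroblast, macrophage and T cell genes, and rises were near 9.2% in those of keratins, claudins, carbonic anhydrases, conjugating enzymes, ABC transporters, antioxidant genes, NADPH oxidases, fatty acid oxidation, Paneth, tuft and endothelial cells and neutrophils. Rises were near 9.2% in the list of cell division cycle genes too. The split between higher and lower calls depended on the scaling. It was 2703 higher and 1280 lower after centring each array on its median without loess (median of all genes 0.10), 3394 and 3035 on the log ratio the scanner software computed, 3947 and 4041 with the red channel alone, and 2699 and 2512 of 22958 genes in the authors' deposited table. The deposited values correlated with the scanner's ratio at 1 on every array. A call lost under both of these scalings below is therefore not lost in separate checks.

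**Figure D1:**
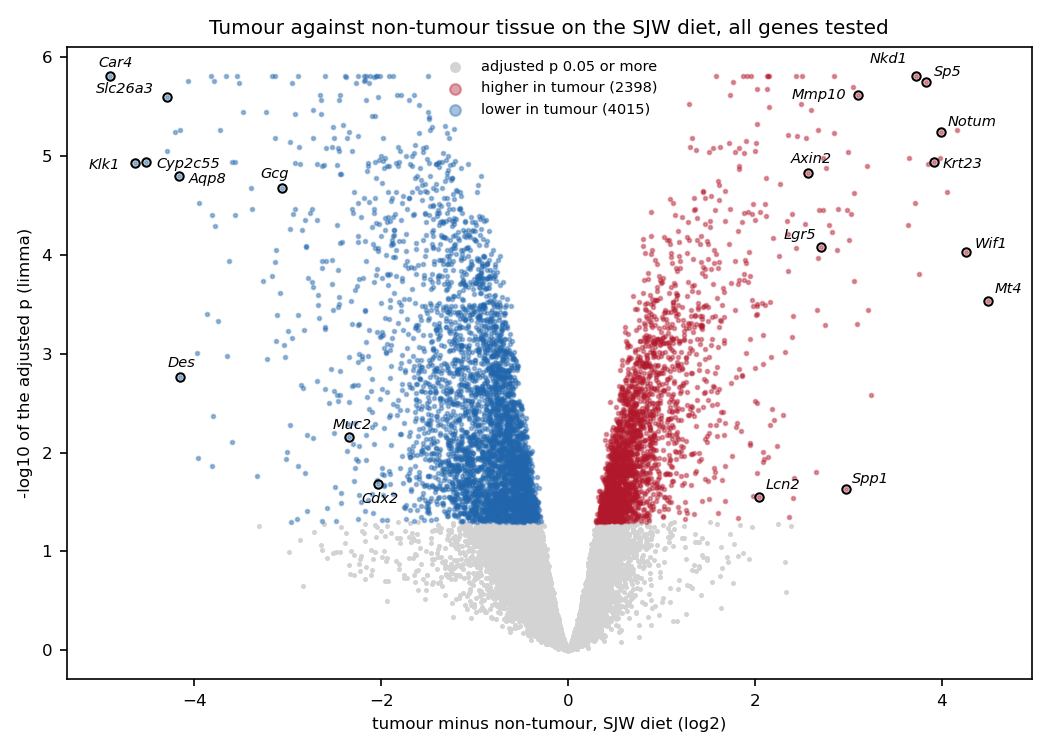
Change in SJW diet tumours against SJW diet non-tumour tissue (log2, x axis) for each of 26067 genes, against -log10 of the limma adjusted p (y axis); red points are the 2398 higher and blue points the 4015 lower genes, grey points did not pass 0.05, and named genes are circled. The lower side reaches further, to -4.9 for Car4, than the higher side, at 4.5 for Mt4.

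Wnt antagonists and Wnt target genes were the group with the highest median change of the 50 gene lists examined. This rank is a description, since the lists were chosen with earlier results of these data known. Of 23 measured members 21 rose and 0 fell, where 9.2% of all genes rose and 15.4% fell, and the median change was 1.83. Wif1, a secreted protein that binds Wnt ligands, measured 6.0, 3.56 and 5.63 in tumours and 0.38, 0.46 and 1.57 in non-tumour tissue. Its lowest tumour, replicate 2, was still well above the highest non-tumour sample, and the change was 4.26 ± 0.58 (adjusted p = 9.44e-05). Notum, a secreted enzyme that removes the lipid group Wnt needs to bind its receptor, measured 4.5, 3.6 and 3.64 in tumours and -0.30, -0.11 and 0.18 in non-tumour tissue, a change of 3.99 ± 0.38. Nkd1, which binds Dishevelled inside the cell, measured 3.75, 2.95 and 3.57 against -0.53, -0.38 and 0.01, with a change of 3.72 ± 0.29. All 3 antagonists were near the pool level in non-tumour tissue, apart from Wif1 in non-tumour replicate 3, and far above it in every tumour.

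Sp5, a transcription factor directly induced by beta-catenin, measured 3.35, 3.29 and 3.54 in tumours and -0.64, -0.48 and -0.19 in non-tumour tissue, and the change was 3.83 ± 0.32 (adjusted p = 1.78e-06). The tumours lay closer together for Sp5 than for Wif1, Notum or Nkd1. Axin2, a scaffold of the complex that degrades beta-catenin, measured 3.85, 3.02 and 3.35 against 0.60, 1.01 and 0.89, a change of 2.57 ± 0.28. The membrane ligases that remove Wnt receptors also rose, Znrf3 by 1.83 and Rnf43 by 1.47, as did the nuclear partners of beta-catenin Lef1 (1.95) and Tcf7 (1.67). Of the ligands, Wnt10a measured 1.66, 4.0 and 4.08 in tumours and -0.20, -0.03 and 0.26 in non-tumour tissue, with replicate 1 the lowest tumour, and Wnt6 rose by 1.08 and Wnt11 by 0.51. Apcdd1, a membrane-bound Wnt inhibitor, and Dkk2, a secreted modulator, were not well above background on any of the 3 non-tumour arrays, so their non-tumour values are limits and no fold is given. Log2 ratios of Apcdd1 were 1.71, 1.56 and 2.55 in tumours and -1.05, -0.81 and -0.36 in non-tumour tissue (adjusted p = 0.000107), and those of Dkk2 were 1.6, 1.64 and 2.97 against -0.15, 0.07 and 0.01 (adjusted p = 0.00987). Myc, a growth-promoting transcription factor, measured 1.1, 1.08 and 1.15 in tumours and 0.41, 0.11 and 0.28 in non-tumour tissue. The groups did not overlap, but its change of 0.84 ± 0.27 lost its call when any 1 of the 6 arrays was left out (adjusted p up to 0.098) and with the scanner's log ratio or the deposited table. Members that did not pass were Nkd2 (-0.02) and Cldn2 (-0.09).

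The promoters of this list were searched because its members moved together. The letters CTTTGAT and CTTTGAA, which TCF and LEF proteins are known to bind, were looked for on both strands in windows of 300 bases, from 250 before to 50 after each gene's start, taken from RefSeq on build GRCm38.p6. Of 24 windows of 16 listed genes 3 held a match (12.5%), against 2842 of 32851 windows of all genes (8.65%). A match is a stretch of letters and not a shown binding site, and windows of other starts or of distant enhancers were not searched. The 3 windows are given 5′ to 3′ on the strand of the gene, with the match in capitals: Sp5 on the + strand at chr2:70474673-70474972, Tnfrsf19 on the - strand at chr14:61037938-61038237, and Wnt11 on the + strand at chr7:98834862-98835161. The capitals read CTTTGAT in Sp5 and its reverse complement in Tnfrsf19 and Wnt11. They begin at -104, -202 and -51 bases from the start of Sp5, Tnfrsf19 and Wnt11, in that order.
Sp5: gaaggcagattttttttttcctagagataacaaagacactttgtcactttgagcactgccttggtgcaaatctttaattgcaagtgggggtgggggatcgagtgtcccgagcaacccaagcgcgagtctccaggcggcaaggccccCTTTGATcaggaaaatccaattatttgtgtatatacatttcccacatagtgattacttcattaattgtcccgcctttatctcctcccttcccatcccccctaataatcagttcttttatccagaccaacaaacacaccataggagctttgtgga
Tnfrsf19: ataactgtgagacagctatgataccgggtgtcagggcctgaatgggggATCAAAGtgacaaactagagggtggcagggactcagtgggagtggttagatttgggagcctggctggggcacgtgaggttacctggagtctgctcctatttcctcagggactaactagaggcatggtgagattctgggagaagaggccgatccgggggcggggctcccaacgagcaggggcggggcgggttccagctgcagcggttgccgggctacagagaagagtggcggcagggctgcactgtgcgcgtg
Wnt11: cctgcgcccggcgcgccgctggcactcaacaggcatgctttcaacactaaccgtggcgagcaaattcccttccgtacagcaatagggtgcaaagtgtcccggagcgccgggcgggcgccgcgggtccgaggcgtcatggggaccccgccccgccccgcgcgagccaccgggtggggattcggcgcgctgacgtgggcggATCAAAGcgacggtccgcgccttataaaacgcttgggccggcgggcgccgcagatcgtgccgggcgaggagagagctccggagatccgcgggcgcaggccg
Sp5, among the 10 largest rises, shares the match with Tnfrsf19, a receptor of the TNF family that rose by 0.95, and Wnt11, the smallest rise of the list at 0.51. Axin2, Nkd1, Wif1 and Lef1 rose with none of these letters in their windows.

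The other genes among the 10 largest rises belonged to several families. Mt4, a metallothionein known from squamous epithelium, measured 5.89, 5.24 and 5.87 in tumours and 0.43, 0.28 and 2.79 in non-tumour tissue, a change of 4.5 ± 0.70. Mt3, a metallothionein known from the brain, measured 1.38, 1.26 and 1.4 against -2.69, -2.69 and -1.72, a change of 3.72 ± 0.44. For both, non-tumour replicate 3 was the highest of its group and still below every tumour. Krt23, a keratin of epithelial cells, measured 4.18, 4.21 and 4.37 in tumours and -0.09, 0.14 and 0.95 in non-tumour tissue and changed by 3.92 ± 0.41. Tnfrsf11b, which encodes the decoy receptor osteoprotegerin, measured 4.34, 4.72 and 5.38 against 0.49, 1.16 and 1.88, a change of 3.64 ± 0.46. Otop1, a proton channel, measured 2.44, 4.22 and 4.04 in tumours and was not well above background on any non-tumour array, so that it was at least 10.9-fold higher (adjusted p = 1.05e-05). This bound is taken in the red channel alone, with the tumours' mean set against the lowest signal measurable on the non-tumour arrays.

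Among the 10 largest falls were transport and secretory genes of the mature epithelium. Car4, a membrane-bound carbonic anhydrase, measured -3.67, -2.41 and -2.73 in tumours and 2.65, 1.63 and 1.6 in non-tumour tissue, the largest fall among these genes at -4.9 ± 0.40 (adjusted p = 1.54e-06). Klk1, tissue kallikrein, measured -5.0, -2.49 and -3.9 against 0.96, 0.76 and 0.82, and its relative Klk1b4 measured -4.25, -2.41 and -3.62 against 0.85, 0.71 and 0.62; near-identical kallikrein transcripts may share these probes. In both kallikreins tumour replicate 2 was the least low. Hao2, a peroxisomal hydroxyacid oxidase, measured -3.91, -1.7 and -2.88 in tumours and 1.72, 1.45 and 1.23 in non-tumour tissue, a change of -4.29 ± 0.44. Spink1, a secreted trypsin inhibitor, measured -2.83, 0.57 and -0.93 against 2.68, 3.1 and 2.95, so that the tumours spread over more than 3 log2 units while the non-tumour samples stayed close together.

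**Figure D2:**
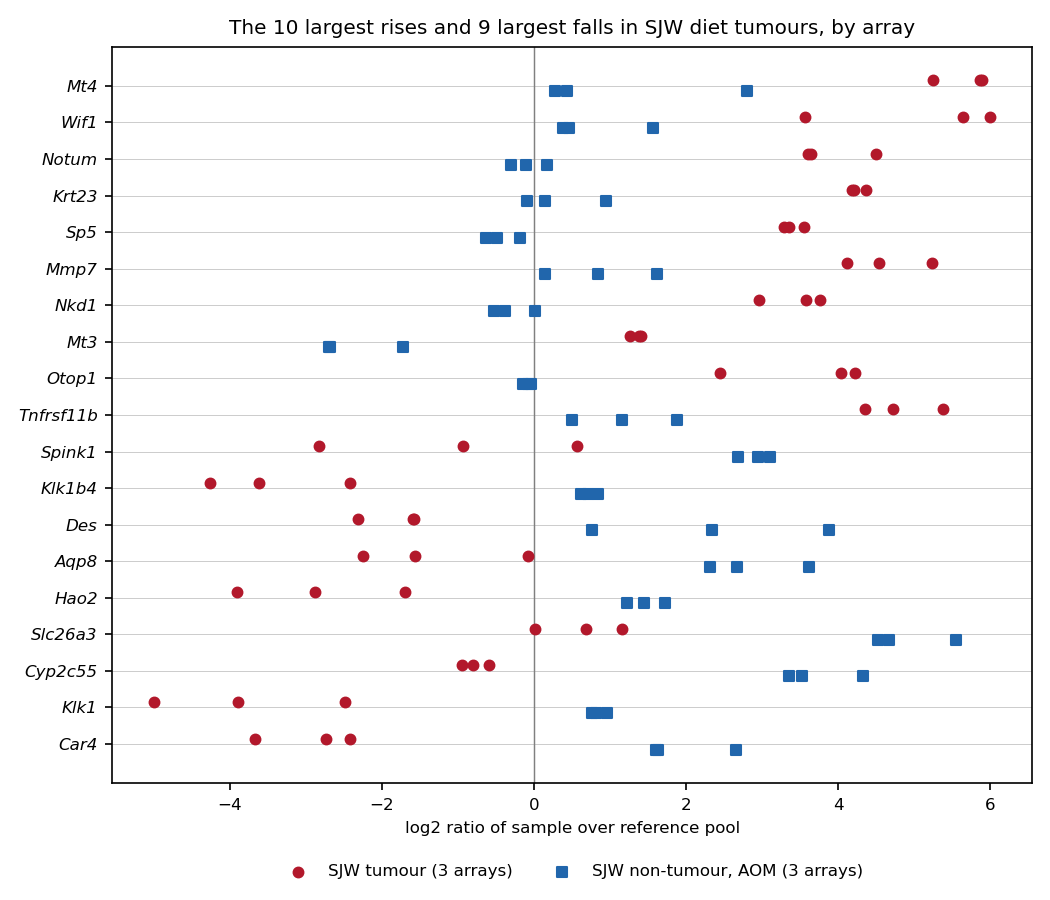
Log2 ratio of sample over reference pool (x axis) on each of the 3 SJW tumour arrays (red circles) and 3 SJW non-tumour arrays (blue squares) for the 10 largest rises and 9 largest falls among genes that passed and did not overlap (rows). Red and blue do not overlap in any row, Mt4, Wif1 and Des spread widely within a group, and Sp5 and Mt3 spread little among the tumours.

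Of 16 genes of crypt stem and progenitor cells 7 rose and 1 fell, with a median change of 0.51. Lgr5, a receptor that marks crypt stem cells, measured 4.07, 2.88 and 3.21 in tumours and 0.65, 0.91 and 0.48 in non-tumour tissue, a change of 2.71 ± 0.36. Smoc2, another gene of that stem cell, measured 1.76, 1.22 and 1.94 against -0.24, -0.23 and -0.62 (2.0 ± 0.25), and the tumours lay clear of the non-tumour samples for both genes. Ephb3, a receptor that positions cells in the crypt, rose by 0.92, and the transcription factors Sox4, Sox9 and Ascl2 rose by 1.18, 0.72 and 0.72. Lrig1, an inhibitor of EGF receptors that also marks crypt stem cells, went the other way, with -0.90, -1.04 and -1.12 in tumours and 1.48, 1.19 and 1.05 in non-tumour tissue (-2.27 ± 0.19, adjusted p = 1.84e-06).

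Of 27 measured genes of the cell division cycle, 2 rose (7.41%), near the 9.2% of all genes that rose. None fell, where 15.4% of all genes did, and the median change was 0.19. Mki67, the proliferation marker Ki-67, measured 1.39, 1.37 and 1.38 in tumours and 2.18, 1.51 and 1.8 in non-tumour tissue (-0.45 ± 0.21, adjusted p = 0.133). The members that passed were Plk1, a mitotic kinase (0.43 ± 0.14), and Pcna, the sliding clamp of DNA replication (0.40 ± 0.14). The count depended on single arrays, since 0 rose without tumour replicate 1 or without non-tumour replicate 2, and 5 without tumour replicate 2. With median centring 7 rose, with the scanner's log ratio 6, 4 of 24 did so in the deposited table, and in the red channel alone 9 rose and 1 fell. Ribosome biogenesis genes gave 1 rise and 1 fall among 21. Of 29 cytosolic ribosomal proteins 0 rose and 4 fell, Rpl22 (-0.69 ± 0.17) and Rps24 (-0.75 ± 0.22) among them, with 1 left without tumour replicate 2 and 0 after median centring.

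Of 23 genes of the ERK pathway and its early response, 9 rose and 4 fell, the falls numbering 2 without tumour replicate 1 or non-tumour replicate 1 and 1 after median centring. Etv5, a transcription factor induced by ERK, measured 2.19, 2.18 and 2.06 in tumours and -1.36, -0.73 and -0.57 in non-tumour tissue, a change of 3.03 ± 0.37. Ereg, a ligand of the EGF receptor, measured 2.33, 1.95 and 2.18 against 0.32, 0.23 and 0.12 (1.92 ± 0.28), and Dusp4, a phosphatase that switches ERK off, measured 1.45, 0.93 and 1.16 against -0.87, -0.95 and -0.35 (1.9 ± 0.27). None of these genes overlapped between the groups, and Phlda1 also rose (1.45). Fos, an immediate early gene, measured -0.47, 0.78 and 0.72 in tumours and 1.75, 0.74 and 1.88 in non-tumour tissue. Its groups overlapped, and its change of -1.11 ± 0.37 lost its call without tumour replicate 1, non-tumour replicate 1 or non-tumour replicate 3 (adjusted p up to 0.179), after median centring and in the red channel alone. Dusp6, another phosphatase of ERK, measured 0.66, 0.23 and 0.63 in tumours and 0.41, 0.41 and 0.60 in non-tumour tissue.

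Bone morphogenetic proteins (BMPs) restrain proliferation above the crypt base, and secreted antagonists block them at the base. Of 23 such genes 12 rose and 1 fell. Among the ligands, Bmp7 measured 1.23, 1.34 and 1.58 in tumours and -1.12, -1.24 and -0.57 in non-tumour tissue (2.36 ± 0.23), Bmp4 rose by 0.91, the activin subunits Inhba and Inhbb rose by 2.24 and 1.86, and Bmp3 was the member that fell, at -1.48. The target gene Id3, an inhibitor of differentiation factors, measured 1.41, 1.64 and 1.58 in tumours and -0.45, -0.43 and -0.09 in non-tumour tissue (1.87 ± 0.15). Its relative Id2 measured 0.23, 0.36 and 0.14 against -1.35, -1.13 and -0.91 (1.37 ± 0.14), with tumours clear of non-tumour samples for both, while Id1 differed by -0.17 without passing. Of 12 genes of insulin-like growth factor signalling, Igf1 (1.79 ± 0.28) and the binding proteins Igfbp4 (1.6 ± 0.30), Igfbp7, Igfbp3 and Igfbp5 rose, whereas Igfbp2 (-0.72) and the receptor Igf1r (-0.76) fell. Neither fall was called without non-tumour replicate 2 or after median centring.

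Matrix metalloproteases, enzymes that cut the extracellular matrix, and their inhibitors rose in 11 of 25 measured cases, and 0 fell. Mmp7, matrilysin, measured 4.11, 4.53 and 5.23 in tumours and 0.14, 0.84 and 1.62 in non-tumour tissue, a change of 3.76 ± 0.54. Mmp10, a stromelysin, measured 3.83, 3.49 and 4.5 against 0.93, 0.88 and 0.69 (3.11 ± 0.27, adjusted p = 2.42e-06). Both genes, and Mmp13, a collagenase (3.05, 2.44 and 3.25 in tumours and 0.06, 0.15 and 0.35 in non-tumour tissue, change 2.73 ± 0.33), were high in all 3 tumours. Mmp9, a gelatinase that neutrophils also carry, measured 2.4, 3.71 and 3.76 against 0.33, -0.07 and 0.62 (3.0 ± 0.31), and Mmp14, which sits on the cell surface, rose by 1.33. The inhibitor Timp1 rose by 0.85, while Timp2 (-0.08) and Timp3 (-0.21) did not pass. Mean levels over the 25 members on single arrays were 0.75, 0.79 and 0.83 in tumours and -0.35, -0.08 and -0.08 in non-tumour tissue.

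Collagens and other matrix proteins rose in 10 of 23 cases and fell in 0. The basement membrane collagen Col4a1 measured 1.22, 1.22 and 0.86 in tumours and -1.36, -0.20 and -0.74 in non-tumour tissue (1.86 ± 0.23), and Col18a1, another collagen of basement membranes, measured 1.51, 1.71 and 1.06 against -0.37, -0.27 and -0.25 (1.72 ± 0.17). Col5a2, of fibrillar collagen, measured 2.05, 2.23 and 1.63 against -0.60, 0.89 and -0.33, and non-tumour replicate 2 was the sample closest to the tumours. Thbs2, a matricellular thrombospondin, rose by 2.17 ± 0.34, and Spp1, osteopontin, by 2.97. The mean over the list was 0.61, 0.66 and 0.31 in tumours and -0.92, 0.28 and -0.59 in non-tumour tissue. Leaving out non-tumour replicate 2, the highest of its group, brought the count to 14, and leaving out tumour replicate 1 or non-tumour replicate 1 brought it to 6.

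Markers of other cells of the gut wall are given beside the stromal genes. In bulk tissue, fewer cells of a type and less RNA per cell cannot be told apart. Smooth muscle genes fell in 13 of 17 cases, with a median change of -1.59. Des, the muscle filament desmin, measured -1.59, -1.58 and -2.32 in tumours and 2.34, 3.87 and 0.76 in non-tumour tissue, a change of -4.16 ± 0.81, and Cnn1, calponin, measured -1.57, -0.92 and -1.56 against 2.72, 3.71 and 0.92. The non-tumour samples differed by about 3 log2 units for both, with replicate 2 the highest and replicate 3 the lowest. The list's mean level was -0.55, -0.53 and -0.87 in tumours and 1.23, 2.3 and 0.17 in non-tumour tissue, and the count was 5 without non-tumour replicate 2 or tumour replicate 3 and 15 without non-tumour replicate 3, and 7 after median centring. Acta2, smooth muscle actin, which activated fibroblasts also make, differed by -0.14 without passing. The part that the amount of muscle in a sample has in the collagen and matrix results was not tested.

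Fibroblast markers went both ways, with 4 rises and 3 falls among 15, and their median of -0.16 turned positive with median centring, the scanner's log ratio, the deposited table and the mean over a gene's probes. Vim, the filament vimentin, measured 2.28, -0.03 and 1.23 in tumours and -1.22, 0.20 and -0.44 in non-tumour tissue, so that tumour replicate 2 lay within the non-tumour range, and its call was lost without tumour replicate 1 or 3 or non-tumour replicate 1. The platelet-derived growth factor receptor Pdgfrb rose by 0.85 ± 0.17, and Pdgfra by 1.07 ± 0.20, though probes of Pdgfra disagreed in sign. The rises numbered 2 without replicate 1 of either group, and the falls 0 without tumour replicate 1 or 3, without non-tumour replicate 2 and after median centring. Of 16 endothelial genes 2 rose and 1 fell. Prox1, a transcription factor of lymphatic vessels that is also a known Wnt target and stands in the Wnt list too, measured 2.62, 1.5 and 2.66 in tumours and 0.35, 0.04 and 0.34 in non-tumour tissue (2.01 ± 0.33), while Lyve1, a lymphatic surface receptor, fell by 1.17, except without tumour replicate 1 and in the red channel alone. Without non-tumour replicate 3, 6 endothelial genes rose, and 7 after median centring. Enteric neuron and glia genes fell in 8 of 20 cases, among them Sox10 of glia (-1.28 ± 0.20) and Vip, a neuropeptide, at -0.05, 0.20 and -0.44 in tumours and 2.66, 2.95 and 0.60 in non-tumour tissue. That count was 3 to 5 when 1 array was left out, lowest without tumour replicate 3 or non-tumour replicate 1, and 3 after median centring, and Vip was not called without non-tumour replicate 1 or 2.

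**Figure D3:**
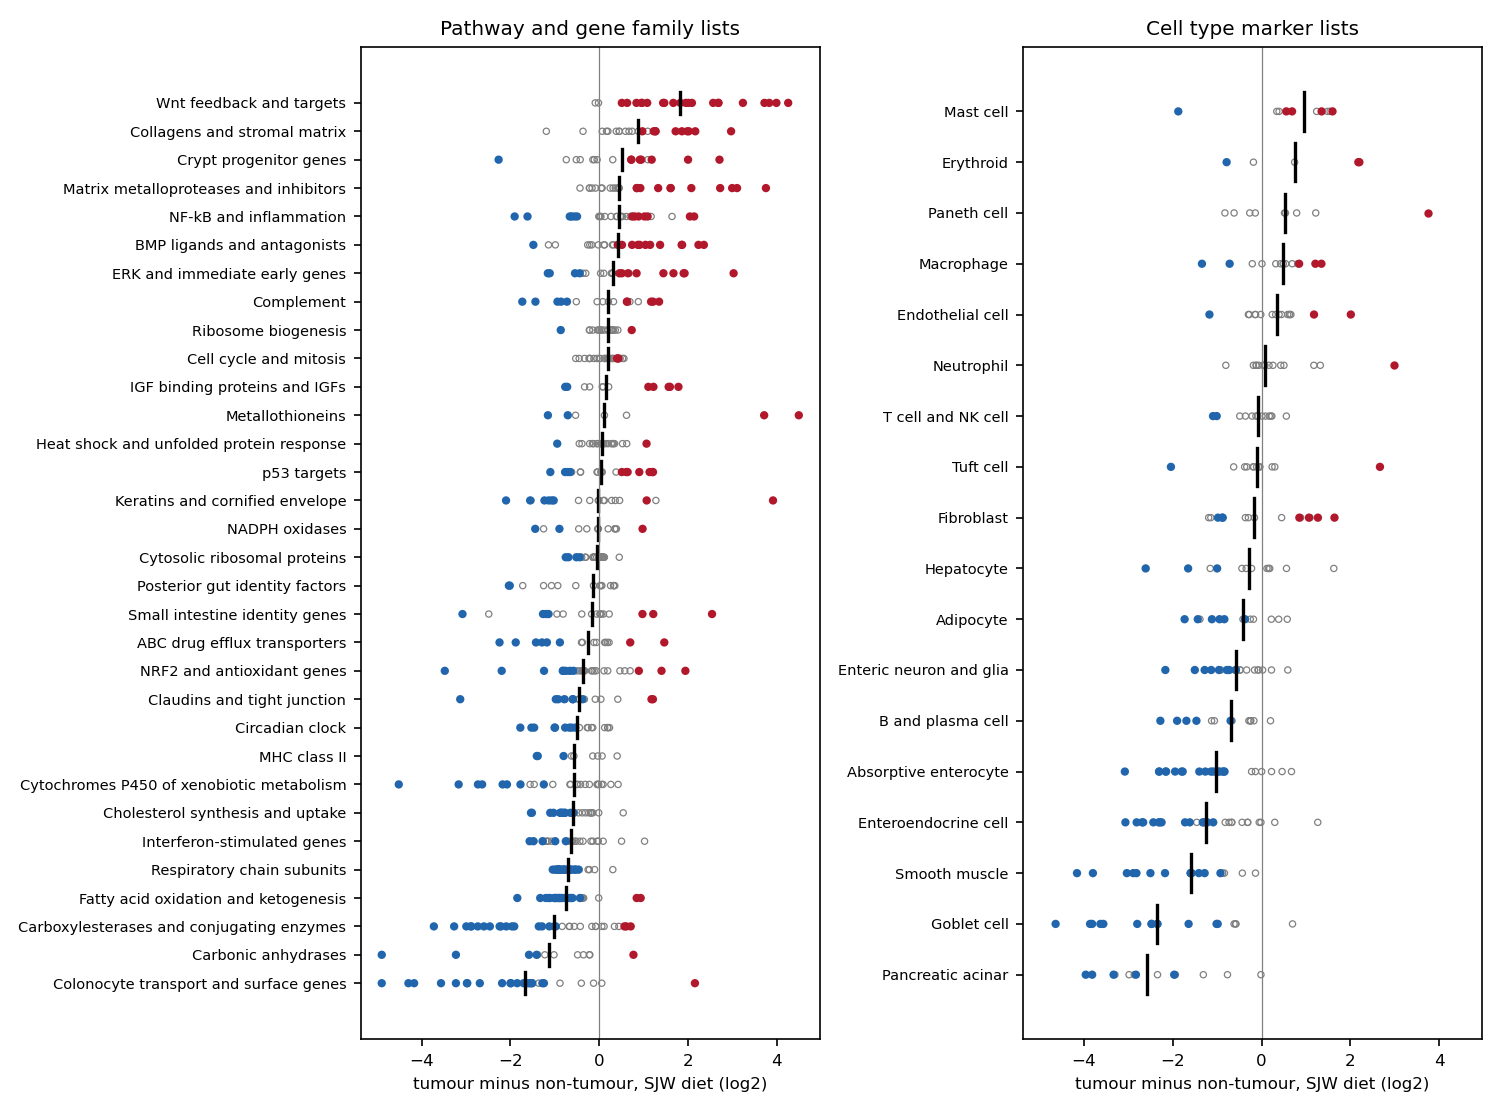
Change in SJW diet tumours (log2, x axis) of each measured member of the 32 pathway lists (left) and 18 cell type lists (right), with lists ordered by their median (black bar); filled points passed the limma test, red higher and blue lower, and open points did not pass. The Wnt list lies highest on the left, at a median of 1.83, and colonocyte transport lowest, at -1.66.

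Genes that mature surface cells of the large intestine use for transport fell in 20 of 26 cases, and 1 rose. Slc26a3, the chloride and bicarbonate exchanger of surface cells, measured 0.01, 1.16 and 0.68 in tumours and 5.55, 4.66 and 4.52 in non-tumour tissue, a change of -4.3 ± 0.38 (adjusted p = 2.52e-06). Aqp8, a water channel, measured -2.25, -0.08 and -1.57 against 3.61, 2.67 and 2.31, a change of -4.17 ± 0.46. Tumour replicate 2 was the highest tumour for both genes and remained far below the lowest non-tumour sample. Slc26a2, a sulphate transporter, fell by 2.97, Slc16a1, which takes up butyrate, by 2.19, and the sodium channel subunits Scnn1a, Scnn1b and Scnn1g changed by -2.69, -1.7 and -1.52. The exception was Slc9a3, a sodium and proton exchanger, which measured 1.93, 2.34 and 2.49 in tumours and 0.51, -0.30 and 0.09 in non-tumour tissue and rose by 2.16. Of 12 carbonic anhydrases 4 fell, Car1 by 3.23 and Car2 by 1.58 among them, and Car7 rose (0.77 ± 0.13) except in the red channel alone.

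Absorptive cell genes shared with the small intestine fell in 18 of 25 cases, 12 after median centring, and 0 rose. Fabp2, a fatty acid carrier, measured 0.72, 1.07 and 0.78 in tumours and 3.99, 3.73 and 4.09 in non-tumour tissue (-3.08 ± 0.47). Mep1a, a brush border protease, measured -1.88, -0.99 and -1.92 against 0.59, 0.80 and 0.74 (-2.31 ± 0.23), and Myo1a, the myosin of microvilli, 1.35, 1.87 and 1.25 against 3.86, 3.59 and 3.47. Hnf4a, a transcription factor of absorptive cells, measured 0.66, 1.04 and 0.48 against 2.19, 2.15 and 2.04 and fell by 1.4 (adjusted p = 4.04e-05), with no overlap. The caudal factors Cdx1 and Cdx2, which set intestinal identity, were the members of 15 posterior gut factors that fell. Cdx1 measured 2.77, 2.68 and 2.7 in tumours and 5.02, 4.67 and 4.51 in non-tumour tissue (-2.01 ± 0.35), and Cdx2 measured 2.91, 2.67 and 2.38 against 4.96, 4.37 and 4.73 (-2.03 ± 0.59). Although the groups did not overlap, Cdx2 lost its call without tumour replicate 3, non-tumour replicate 1 or non-tumour replicate 3 (adjusted p up to 0.0703) and with the scanner's log ratio or the deposited table.

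Among 19 genes of small intestinal identity, 3 rose and 4 fell, Fabp2 and the apolipoprotein Apoa1 (-1.2) among the genes that fell. The falls numbered 2 without tumour replicate 2 or non-tumour replicate 3. Onecut2, a transcription factor of the upper small intestine, measured 2.12, 2.01 and 2.17 in tumours and -0.68, -0.49 and -0.15 in non-tumour tissue, a change of 2.54 ± 0.25 (adjusted p = 6.57e-06). Gata5, not well above background on any non-tumour array, measured 0.92, 1.07 and 1.2 in tumours and -0.38, -0.21 and 0.12 in non-tumour tissue (adjusted p = 0.021), and no fold is given. Gata4 measured 0.08, 0.62 and 0.19 in tumours and -0.71, -0.83 and -0.50 in non-tumour tissue (0.98 ± 0.16), but its probes disagreed in sign, it was not called in the red channel alone, and in the deposited table it was lower in tumours, without passing. Sucrase-isomaltase (Sis), an enzyme of small intestinal absorptive cells, measured 0.59, 0.59 and 0.47 against 0.51, 0.37 and 0.48 and did not pass.

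Goblet cell genes had the largest fall in median of any list other than the pancreatic one, at -2.35, with 13 of 17 falling and 0 rising. Muc2, the main gel-forming mucin, measured 3.63, 6.46 and 5.08 in tumours and 7.26, 7.14 and 7.8 in non-tumour tissue (-2.35 ± 0.56, and -3.05 without tumour replicate 2). Zg16, a lectin of the mucus layer, measured 0.65, 2.84 and 2.2 against 6.04, 5.49 and 5.6 (-3.82 ± 0.47), and Agr2, which folds mucins, measured 1.62, 2.94 and 2.46 against 4.95, 4.96 and 4.54. In all 3 genes tumour replicate 1 was the lowest and tumour replicate 2 the highest of the tumours, and the non-tumour samples lay close together. The transcription factors of the secretory lineage Atoh1 and Spdef changed by -2.35 and -2.48. Mean levels over the list were 0.47, 1.87 and 1.39 in tumours and 3.46, 3.33 and 3.41 in non-tumour tissue.

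Hormone-producing enteroendocrine cells gave the same direction, with 14 of 26 genes falling and 0 rising. Gcg, the source of glucagon-like peptides, measured 0.56, 1.42 and 0.97 in tumours and 4.44, 3.99 and 3.72 in non-tumour tissue (-3.07 ± 0.35, adjusted p = 2.12e-05). Chgb, a granule protein, measured -1.75, -1.46 and -2.76 against 0.78, 1.01 and 0.68 (-2.81 ± 0.35), and Tac1, the precursor of substance P, which neurons also make, fell by 2.29. Pyy, a satiety hormone, measured 0.11, 1.27 and 0.66 against 3.57, 3.5 and 3.04 (-2.69 ± 0.33), but in the red channel alone it was higher in tumours, without passing, and in the deposited table it was not called. Neurotensin (Nts) measured -0.32, -0.61 and 5.0 in tumours and -0.20, 0.07 and 0.41 in non-tumour tissue, high in tumour replicate 3 alone. Of 13 tuft cell genes Avil, an actin-binding protein, rose, with 3.43, 2.4 and 3.31 in tumours and 0.38, 0.53 and 0.23 in non-tumour tissue (2.67 ± 0.42), and Plcb2 fell by 2.04 with probes that disagreed in sign and a call that was lost without tumour replicate 1 or 3, without non-tumour replicate 2 and after median centring. The defining tuft cell factor Pou2f3 measured 0.08, 0.09 and 0.37 against 0.08, -0.13 and -0.13, and Dclk1 differed by -0.63, and neither passed. Of 9 Paneth cell genes Mmp7 alone rose, and the defensin Defa22 measured 2.54, 2.44 and 4.65 in tumours and 1.29, 1.98 and 2.7 in non-tumour tissue, with overlap, and did not pass, though it did without tumour replicate 2 (1.61) or without non-tumour replicate 3 (1.58).

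**Figure D4:**
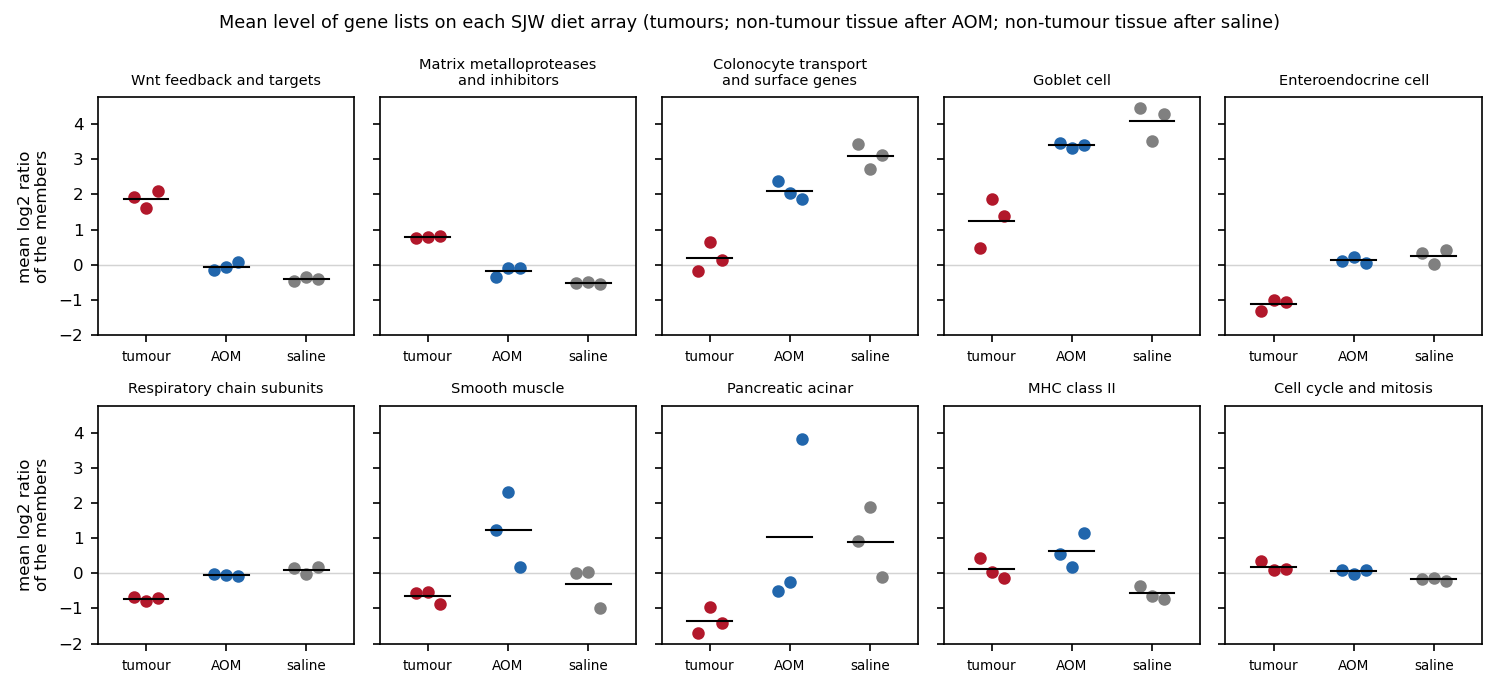
Mean log2 ratio over the members of 10 gene lists (y axis) on each SJW diet array (points), with the group mean as a bar: tumours in red, non-tumour tissue after AOM in blue, non-tumour tissue after saline in grey. Wnt and metalloprotease genes are high in all 3 tumours, goblet, enteroendocrine, colonocyte and respiratory chain genes are low in all 3, and pancreatic genes are high in 1 AOM non-tumour array (3.83).

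Of 26 genes of cytochromes P450, which oxidise drugs and other foreign compounds, and their regulators, 8 fell and 0 rose. Cyp2c55, a P450 of the mouse colon, measured -0.95, -0.59 and -0.81 in tumours and 4.32, 3.52 and 3.35 in non-tumour tissue, a change of -4.51 ± 0.48. Cyp2s1 measured -1.65, -0.85 and -1.83 against 1.65, 1.58 and 1.93 (-3.17 ± 0.23, adjusted p = 1.54e-06), and Cyp2c29 measured -1.07, 0.27 and -0.47 against 2.11, 1.6 and 1.53, with no overlap in any of the 3 genes. Nr1i2, which encodes PXR, measured 1.34, 1.52 and 1.19 in tumours and 2.96, 2.5 and 2.33 in non-tumour tissue and fell by 1.25. Cyp3a11, a classic PXR target in mouse liver, measured -1.18, -0.61 and -0.62 in tumours and 0.01, -0.42 and -0.03 in non-tumour tissue and did not pass (-0.66 ± 0.26, adjusted p = 0.0737); its close relatives may share its signal.

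Carboxylesterases and conjugating enzymes fell in 18 of 33 cases and rose in 3. Ces2c, an esterase of gut and liver, measured -1.62, 0.09 and -1.25 in tumours and 3.08, 2.69 and 2.62 in non-tumour tissue (-3.72 ± 0.35), and Ces2b -1.05, -0.08 and -0.78 against 2.54, 2.25 and 1.94. The sulphotransferase Sult1c2 measured -1.95, -1.42 and -2.18 against 1.0, 0.90 and 0.75 (-2.73 ± 0.25), and the glutathione transferase Gstm2 fell by 2.09. The 3 rises, Ugt2b34, Gstm5 and Gsta4, were small (0.71, 0.61 and 0.57), and 1 was called without tumour replicate 3 or any 1 of the non-tumour arrays.

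Of 16 efflux and lipid transporters of the ABC family 6 fell and 2 rose, and the median of -0.25 was positive over the members in the deposited table. Abcg2, the pump that exports many drugs and dietary compounds, measured -2.44, -1.28 and -2.08 in tumours and 0.46, 0.36 and 0.13 in non-tumour tissue (-2.24 ± 0.30). Abcc3 measured -0.90, -0.04 and -0.93 against 1.44, 1.21 and 1.13 (-1.88 ± 0.25), and Abcb1a, which encodes P-glycoprotein, measured 0.88, 1.4 and 0.98 against 2.88, 2.18 and 2.46 (-1.42 ± 0.29). Abcc2, a conjugate pump, went the other way: it measured 1.04, 0.65 and 1.04 in tumours and -0.65, -0.68 and -0.34 in non-tumour tissue (adjusted p = 0.00112). It was not well above background on any non-tumour array, so no fold is given. The falls numbered 3 without tumour replicate 1 and after median centring, and the rises 1 without replicate 1 or 2 of either group.

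Antioxidant genes, many of them targets of NRF2, fell in 8 of 29 cases, 4 after median centring, and rose in 3. Akr1c14, an aldo-keto reductase, measured -1.76, -0.45 and -1.35 in tumours and 2.86, 2.04 and 1.97 in non-tumour tissue (-3.48 ± 0.32), and Txn1, thioredoxin, fell by 1.24. Hmox1, which degrades haem, measured 1.87, 1.35 and 0.80 against -0.85, -0.49 and -0.47 and rose by 1.94 ± 0.26, and Prdx1, a peroxidase, rose by 0.89 except in the red channel alone. Of 7 genes of metallothioneins and zinc transport, Mt3 and Mt4 rose as given above, while the widely expressed Mt1 and Mt2 differed by 0.12 and 0.62 without passing, and the zinc importer Slc39a4 fell by 1.15. Of 12 NADPH oxidase genes Cyba rose (0.98 ± 0.20) and 2 fell, Noxo1 (-1.44 ± 0.16) among them.

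Subunits of the mitochondrial respiratory chain fell in 26 of 32 cases and rose in 0, with a median of -0.69, and their mean level was -0.66, -0.79 and -0.70 in tumours and -0.02, -0.05 and -0.08 in non-tumour tissue. Cox5a, a subunit of cytochrome oxidase, measured -0.62, -0.61 and -0.49 against 0.36, 0.27 and 0.39 (-0.92 ± 0.11), and Cox6c -1.22, -1.34 and -1.34 against -0.15, -0.45 and -0.33 (-0.99 ± 0.12). The 3 tumours lay together and clear of the 3 non-tumour samples for both genes. After median centring the list's median was -0.45 and 1 of the 32 subunits passed, while 26 passed in the red channel alone and with the scanner's log ratio. Fatty acid oxidation and ketogenesis genes fell in 19 of 28 cases and rose in 2. Bdh1, which makes and uses ketone bodies, measured -0.80, -0.91 and -0.58 in tumours and 1.1, 1.26 and 0.87 in non-tumour tissue (-1.84 ± 0.20, adjusted p = 1.17e-05), and Hadh, an enzyme of fatty acid oxidation, fell by 1.33. After median centring 2 members of this list fell, and the rises numbered 1 without tumour replicate 3 or non-tumour replicate 1.

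Cholesterol synthesis and uptake genes fell in 13 of 24 cases and rose in 0. Msmo1, a sterol oxidase, measured 0.47, 0.24 and 0.19 in tumours and 2.03, 1.71 and 1.76 in non-tumour tissue (-1.54 ± 0.19). The count was 8 without tumour replicate 2 or non-tumour replicate 1 and 2 after median centring. Of 18 clock genes 9 fell and 0 rose, among them the core factors Clock (-0.62) and Arntl (-0.54). Dbp, a transcription factor whose level follows the time of day, measured -2.0, -1.36 and -1.82 in tumours and -0.05, -0.24 and -0.32 in non-tumour tissue (-1.53 ± 0.19), and Hlf, of the same family, fell by 1.46. Per1 and Per2, of the core clock, differed by -0.27 and -0.14 without passing. Times of tissue collection are not given in the sources used here, and 4 clock genes fell after median centring.

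Inflammation genes divided, with 7 rises and 6 falls among 30. Cxcl5, a neutrophil chemokine, measured 1.45, 2.38 and 3.57 in tumours and -0.17, 0.70 and 0.46 in non-tumour tissue, and Lcn2, an iron-binding defence protein, measured -3.42, -3.62 and -0.58 against -4.83, -4.67 and -4.25, where tumour replicate 3 was far above the other tumours. The change of Lcn2, 2.04 ± 0.64, lost its call without tumour replicate 3 and without non-tumour replicate 1 or 2 (adjusted p up to 0.128). The cytokine Il1b measured -0.25, 0.19 and 1.31 in tumours and -0.86, -0.95 and 0.00 in non-tumour tissue, with overlap, and its change of 1.02 ± 0.35 lost its call without tumour replicate 2 or 3 or non-tumour replicate 1 or 2 (adjusted p up to 0.226). Il11 (0.89 ± 0.11) and the monocyte chemokine Ccl2 (0.74 ± 0.16) rose with no overlap. Genes that did not pass were Ptgs2, which encodes the inducible cyclooxygenase, at 1.09, 0.75 and 1.62 in tumours and 0.14, 1.14 and 0.09 in non-tumour tissue, Tnf (0.76 ± 0.29), Nos2 (0.39 ± 0.35) and Il6, which was not well above background on any non-tumour array and was above it on 1 tumour array. Saa3, an acute-phase protein, and Birc3, an NF-kB target, fell: Saa3 measured 2.67, 3.8 and 3.61 in tumours and 5.3, 5.25 and 5.24 in non-tumour tissue (-1.9 ± 0.30), and Birc3 1.12, 1.48 and 1.06 against 2.86, 2.77 and 2.88 (-1.61 ± 0.18). Without tumour replicate 3, 4 members rose, and after median centring 2 fell.

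Interferon-stimulated genes fell in 5 of 25 cases, near the 15.4% of all genes that fell, 2 after median centring, and rose in 0. Ifih1, a sensor of viral RNA, measured 0.60, 0.79 and 1.03 in tumours and 2.47, 2.01 and 2.38 in non-tumour tissue (-1.48 ± 0.28), and Oasl1 measured 0.94, 1.31 and 1.45 against 2.86, 2.56 and 2.98 (-1.57 ± 0.30). Of 9 genes of MHC class II antigen presentation H2-Oa, H2-Ob and H2-DMb2 fell, all of them modulators of peptide loading. H2-Oa measured 1.26, 0.69 and 0.25 in tumours and 1.96, 1.78 and 2.61 in non-tumour tissue (-1.38 ± 0.35). The peptide-presenting chains H2-Aa and H2-Ab1 differed by 0.41 and -0.03 without passing, and 0 members fell without tumour replicate 3. The call of H2-Ob was lost without tumour replicate 2 as well (adjusted p = 0.0583). That of H2-DMb2 was lost in 4 of the 6 fits that left out an array, after median centring, with the scanner's log ratio and in the deposited table. Among 17 complement genes 5 rose, C1qa (1.35 ± 0.30) and C1qb (1.21 ± 0.23) among them, and 5 fell, Cfb at -2.52, -2.11 and -1.84 in tumours and -0.48, -0.52 and -0.27 in non-tumour tissue (-1.73 ± 0.18) among them. Without tumour replicate 1 the falls numbered 2, and after median centring 1.

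Immune cell markers moved in different directions. B and plasma cell genes fell in 5 of 14 cases: Ms4a1, which encodes the B cell antigen CD20, measured 2.09, -0.08 and -0.40 in tumours and 2.9, 2.32 and 3.22 in non-tumour tissue, and Cd79a measured 1.73, 0.28 and -0.01 against 2.36, 1.86 and 2.85. For both genes tumour replicate 1 was the highest tumour, close to the non-tumour samples, and non-tumour replicate 3 the highest of all. Without non-tumour replicate 3 the count was 0, and after median centring 3. Of 13 T and NK cell genes 2 fell, Cd2 (-1.01 ± 0.24) and Cd3d (-1.09 ± 0.34), the same share as the 15.4% of all genes. The call of Cd3d was lost without tumour replicate 2 or 3 or non-tumour replicate 3 and under each of the 4 other scalings, and the list's median turned positive with median centring, in the red channel alone and without non-tumour replicate 3. Of 13 macrophage genes 3 rose, C1qa and C1qb among them, and 2 fell, Ctss (-1.34 ± 0.14) and Cd14 (-0.72 ± 0.19, not without tumour replicate 1, after median centring or with the scanner's log ratio). The macrophage list's mean was 0.38, 0.58 and 0.41 in tumours and -0.07, -0.22 and 0.63 in non-tumour tissue, and without non-tumour replicate 3, the highest of its group, 7 genes rose, as 8 did after median centring. Mast cell genes rose in 4 of 10 cases and fell in 1. Tpsb2, a tryptase of mast cells, measured 2.04, 1.29 and 2.83 in tumours and 0.30, -0.02 and 1.07 in non-tumour tissue (1.6 ± 0.38), and Cma1, a chymase, measured 0.66, 1.05 and 1.48 against 2.92, 3.12 and 2.78 (-1.87 ± 0.57). The rises numbered 1 without tumour replicate 3 or non-tumour replicate 1, and Cma1 was called in 1 of the 6 fits that left out an array. Of 15 neutrophil genes Mmp9 alone rose, while S100a8 measured -1.82, -0.97 and 1.01 in tumours and -2.4, -2.16 and -1.19 in non-tumour tissue, with overlap. Among 5 erythroid genes the haemoglobin transcripts rose, Hba-a1 by 2.18 ± 0.47 and Hbb-bt by 2.2 ± 0.50.

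Keratins and cornified envelope genes fell in 6 of 19 cases, 3 after median centring, and rose in 2. Krt8, the general keratin of simple epithelia, measured 1.93, 2.3 and 2.16 in tumours and 3.75, 3.9 and 3.4 in non-tumour tissue (-1.55 ± 0.22), Krt20, of surface cells, changed by -1.14, and Krt7, a keratin of ductal epithelia, rose by 1.07 except in the red channel alone. Claudins and other junction genes fell in 7 of 17 cases and rose in 2. Cldn8, a sealing claudin of the distal gut, measured -0.66, 1.0 and 0.41 in tumours and 3.29, 3.77 and 3.08 in non-tumour tissue (-3.13 ± 0.42), and Cldn4 rose by 1.18. Cdh1 (E-cadherin), Cldn3 and Cldn7 fell by 0.79, 0.92 and 0.98, and these 3 calls were lost after median centring, where 1 member of the list fell. Of 20 p53 target genes 7 rose and 4 fell. Bax, which opens mitochondria in cell death, measured 1.47, 1.48 and 1.72 in tumours and 0.59, 0.66 and 0.71 in non-tumour tissue (0.90 ± 0.14), and Gdf15 rose by 1.14, while Cdkn1a, which encodes the cell cycle inhibitor p21, measured 1.44, 2.43 and 2.53 against 2.73, 2.59 and 2.35 and did not pass. Perp (-1.1 ± 0.16) and Fas (-0.77 ± 0.15) fell, but not after median centring, when 0 of the list fell, and the falls numbered 2 without tumour replicate 1 or 3 or non-tumour replicate 1. Of 21 heat shock and unfolded protein genes, Hsph1 rose (1.07 ± 0.35) and Herpud1 fell (-0.94 ± 0.14), a call that was lost after median centring and in the red channel alone. The call of Hsph1 held in 1 of the 6 fits that left out an array.

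Markers of neighbouring organs and fat are given next. Of 14 pancreatic acinar genes 5 fell, and the list's mean level was -1.7, -0.96 and -1.4 in tumours and -0.50, -0.25 and 3.83 in non-tumour tissue. Pancreatic lipase (Pnlip) measured -3.59, -2.99 and -3.32 in tumours and -2.09, -2.04 and 4.15 in non-tumour tissue, and amylase (Amy2a5) measured -1.16, -0.95 and -1.26 against -1.54, -1.23 and 5.21. Both enzymes were thus high in non-tumour replicate 3 alone, and neither passed. Without that array the list's median was -0.86, against -2.59 with it, and 4 members fell. Without tumour replicate 1 or 3 the count was 3. Of the 5 members that fell, Zg16 stands in the goblet cell list too, and Cela1 measured 1.61, 1.77 and 1.0 in tumours and 4.01, 4.2 and 4.66 in non-tumour tissue, above the pool in every sample. Cpa1, a carboxypeptidase, measured -2.83, -2.02 and -2.64 in tumours and -1.26, -0.12 and 3.88 in non-tumour tissue (-3.33 ± 0.94). Without non-tumour replicate 3 its change was -1.81 and did not pass (adjusted p = 0.0579), and its call was lost without tumour replicate 1 or 3 too. The part of pancreatic tissue in the differences of Cpa1 and Clps was not tested. Of 12 hepatocyte genes 3 fell, Hpd (-2.61 ± 0.28) and Tdo2 (-1.65 ± 0.32) with no overlap, and of 13 adipocyte genes 6 fell, Cidec (-1.73 ± 0.36) and Cfd (-1.44 ± 0.37) among them; when 1 array was left out 2 to 4 adipocyte genes fell, the lowest count without tumour replicate 3 or non-tumour replicate 2, and 1 after median centring.

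Tumours also differed from one another. Among genes above background on all 6 arrays, the 8 with the widest spread over the tumours were Pnliprp1, Pnliprp2, Abtb2, Cadm3, Eno4, Krt36, Krt78 and Pga5, given here as a description. Pga5, a pepsinogen of the stomach, measured 0.06, 5.11 and 0.36 in tumours and 1.0, 1.32 and 0.93 in non-tumour tissue. Krt78 measured -0.16, 4.16 and -0.26 against -0.03, -0.02 and -0.12, and Cadm3, a neural adhesion molecule, -3.35, 1.57 and -3.56 against -2.13, -2.09 and -1.73. Tumour replicate 2 was the high sample in these genes and in Abtb2 and Eno4. Without it all 5 were lower in tumours, Abtb2 and Cadm3 past the threshold at -1.03 and -1.48, and Pga5 (-0.87), Eno4 (-0.57) and Krt78 (-0.15) without passing. Krt36 had the other pattern, at 0.27, 3.95 and 4.23 in tumours and 1.24, 1.73 and 1.64 in non-tumour tissue, so that replicate 1 alone was low. Pnliprp2, a lipase that gut and pancreas make, measured 5.04, 0.37 and 4.71 against 0.31, 0.22 and 2.61 and was low in tumour replicate 2. Its change of 2.32 ± 1.07 did not pass, and without that array it was 3.83 (adjusted p = 0.00715). The 8 genes with the widest spread over the non-tumour samples were Pnliprp1 and 7 enzymes of the pancreas, with replicate 3 high in each. Pnliprp1 passed without that array, at 4.19 (adjusted p = 0.0356), against 2.33 ± 1.46 with it. Leaving out tumour replicate 2 brought Wif1 to 5.01, Vim to 2.24, Aqp8 to -4.78, Klk1 to -5.29 and Spink1 to -4.79. Leaving out non-tumour replicate 3 brought Mt4 to 5.31, Des to -4.94, Cnn1 to -4.56 and Vip to -2.9. The call of Ms4a1 was lost without tumour replicate 2 or 3 or non-tumour replicate 3. That of Plk1 was lost without tumour replicate 1 or 2 or non-tumour replicate 2. Rps24 lost its call without tumour replicate 1 or 2 or non-tumour replicate 3, and after median centring. Pcna lost its call in 5 of the 6 fits that left out an array, and after median centring.

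Whether the tumour change on the SJW diet differed from that on the control diet was tested gene by gene as the difference of the 2 changes, which share no arrays. Of 26067 genes 0 passed (limma, smallest adjusted p 0.9995), and 1081 (4.15%) had an unadjusted p under 0.05. On the control diet 3310 genes (12.7%) rose and 5023 (19.3%) fell in tumours, 32% of all. In the same direction 5001 genes passed on both diets. Tsc22d1 alone passed in opposite directions, with 0.54 on the SJW diet and -0.65 on the control diet, but its call on the SJW diet was lost when any 1 of the 6 arrays was left out (adjusted p up to 0.128). Its values were -0.29, -0.38 and -0.59 in SJW tumours and -1.08, -0.83 and -0.99 in SJW non-tumour tissue, against -0.96, -1.44 and -1.62 in control tumours and -0.55, -0.95 and -0.55 in control non-tumour tissue.

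The genes with the smallest p for the difference, none of which passed, are given as values. Mt3 had a tumour change of 3.72 on the SJW diet and 0.92 on the control diet, a difference of 2.8 (95% interval 1.49 to 4.12). Control tumours measured 0.67, -1.24 and 0.09 for this gene and control non-tumour tissue -1.19, -0.55 and -1.5. Smad6, an inhibitor of BMP signalling, had a tumour change of 0.74 on the SJW diet and 0.01 on the control diet, a difference of 0.73 (95% interval 0.37 to 1.08). On the other side, Cxcl3, a neutrophil chemokine, had a difference of -1.32 (95% interval -1.87 to -0.77). It measured 0.98, 0.61 and 1.38 in SJW tumours, 0.10, 0.23 and 0.25 in SJW non-tumour tissue, 2.64, 2.04 and 2.3 in control tumours and 0.13, 0.24 and 0.26 in control non-tumour tissue. Cfb, complement factor B, had tumour changes of -1.73 on the SJW diet and -0.51 on the control diet, a difference of -1.22 (95% interval -1.76 to -0.69). Noxo1, an organiser of the colonic NADPH oxidase, gave -1.44 and -0.50, a difference of -0.94 (95% interval -1.43 to -0.45), and Kcne3, a potassium channel subunit of crypt cells, gave -2.41 and -1.18, a difference of -1.23 (95% interval -1.91 to -0.55). These intervals are wide, and each was computed for a single gene with no adjustment for picking the genes with the smallest p. They do not show that the diets differed for these genes. Nor does a p above the threshold show that the tumour changes were the same. For the Wnt list the median change was 1.83 on the SJW diet and 1.23 on the control diet. The median of its genes' differences was 0.40. Its mean levels were 1.92, 1.62 and 2.09 in SJW tumours and 1.72, 1.76 and 1.98 in control tumours. In non-tumour tissue they were -0.16, -0.06 and 0.07 on the SJW diet and 0.24, 0.91 and 0.20 on the control diet. Goblet cell genes had medians of -2.35 and -2.41 on the SJW and control diets, and interferon-stimulated genes -0.62 and 0.00.

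**Figure D5:**
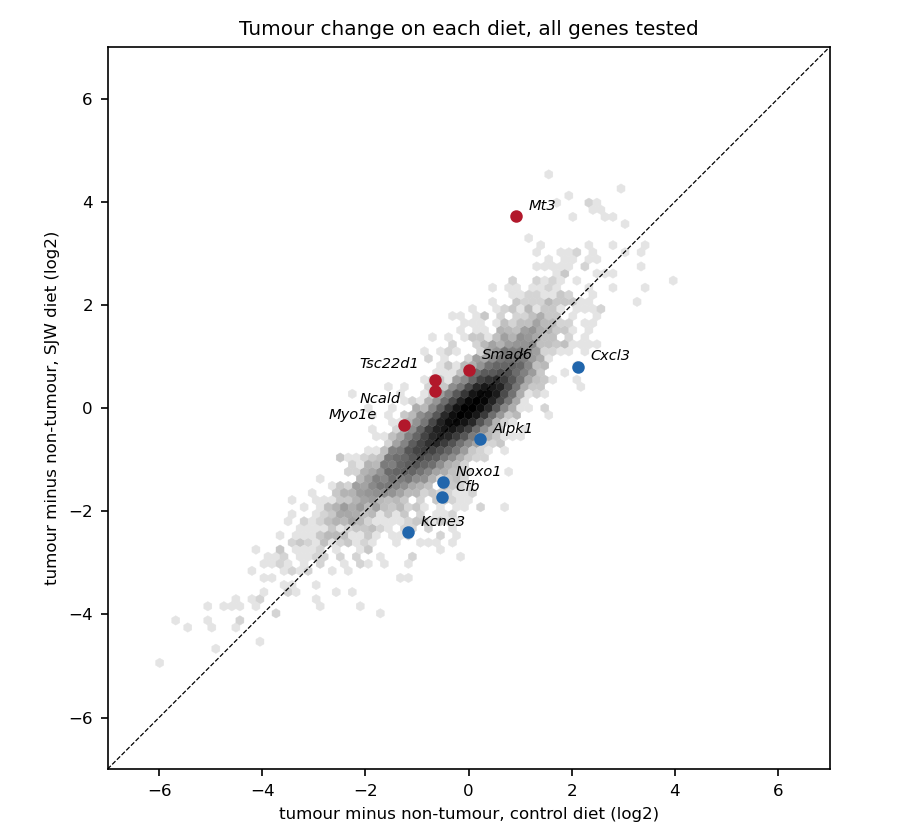
Tumour change on the SJW diet (log2, y axis) against that on the control diet (log2, x axis) for all 26067 genes, darker where more genes lie; the dashed line marks equal change. Named points are the 5 genes with the smallest p in each direction of the difference, red above and blue below the line, and 0 genes passed the test of the difference.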

How the data were processed

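Expression was measured on 18 Agilent mouse arrays with 2 colours: Cy5 held each sample and Cy3 the pool, with no dye swap, so a dye effect shared by all arrays cancels only in differences between groups. The deposited scanner files give, per the file headers (Agilent Feature Extraction 10.10.1.1, protocol GE2_1010_Sep10), median pixel intensities of spots and of the background around them, not normalized, processed intensities, and the log10 ratio of red over green that the software had corrected for dye. The authors' deposited table gives log2 ratios of 35491 probes; on every array it correlated with the scanner's own ratio at 1, which settles its scale and direction, and its column medians were 0.125 to 0.182 for tumours and -0.031 to 0.129 for non-tumour samples on the SJW diet. How its probes were picked stays unknown here.

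From these files background was corrected with normexp (offset 50) on median intensities (the mean spot intensity was not used), with normalization by loess within each array, leaving out 1639 control spots and spots called population outliers. A probe was kept where red was well above background on all 3 arrays of any of the 6 groups (34073 of 41174 probes), and the brightest probe stood for a gene. Of the probes, 27050 had 1 symbol by their RefSeq accession (names from GRCm38.p6) and 14124 had none. All 18 arrays entered 1 fit (limma 3.58.1, lmFit and eBayes, R 4.3.3) with Benjamini-Hochberg adjustment over 26067 genes. The fit was tested on simulated data. Replicates are separate samples per the labels, and whether they come from separate animals is stated only by the design text. The p-values rest on a spread between samples estimated for each gene over all 6 groups. eBayes then draws that spread towards the spread of other genes, so it is not that of the 6 compared samples alone.

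The gene lists and members were chosen with earlier results of these data known. Genes were named by a fixed rule: the 10 largest rises and falls that passed without overlap, the 4 smallest p in each of 50 lists, 24 set genes, the 5 smallest p in each direction of the diet difference, and the 8 widest spreads in each group. A few genes that this rule names are not reported here. Other list members were named after their values were seen. Alternatives changed the background correction, scaling, filter, probes, model terms and arrays included.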

Additional observations from a re-analysis of the deposited data

How the results depend on the processing

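The count of 6413 genes was 3983 after median centring, for which the cause was not tested, and 4475 to 5378 when 1 of the 6 arrays was left out, with fewer samples in the fit. It stayed within 1.5 times under the other alternatives, from 5211 of 22958 genes with the deposited table to 7988 with the red channel alone. With only the 6 arrays compared in the fit, 7257 genes passed, 5677 of them among the 6413. Deviations of same-numbered tumour and non-tumour samples from their group means correlated at 0.0717, -0.0697 and -0.0188. With 3 arrays in each group, these values cannot decide whether same-numbered samples came from 1 mouse. With a replicate block 6128 genes passed. The difference between the diets gave 0 genes under every alternative but 1, and 0 to 1 when 1 array was left out: without SJW tumour replicate 2, Pcgf1 passed (1.55, adjusted p = 0.0112). Of 188 named genes that passed, 151 kept their call with any 1 array left out. Under the 4 other scalings 136 kept it wherever they were measured. The deposited table measured 195 of the 235 named genes, so some were not tried there. Direction turned for Pyy in the red channel alone (0.67) and for Gata4 in the deposited table (-0.36). The 2 probes kept for Gata4 changed by -0.40 and 0.98 in the main processing, and the deposited table holds fewer probes. Without tumour replicate 2 direction turned for Abtb2 (-1.03, against up to 1.22 with another array left out) and Cadm3 (-1.48, against up to 1.09). The cause of these turns was not tested. Dim non-tumour arrays, with red 2.08 to 2.86 times background, limit folds of genes that are low there to bounds.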
